A study of Mus musculus with 61 samples.

Results

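The 34 genes described here serve protein folding in the endoplasmic reticulum (ER) and the unfolded protein response, and they were taken by name from a fixed list. All 34 were found among the 18194 genes that had at least 1 probe set with a single gene symbol, and where a gene had several such probe sets the one with the highest average across the 61 arrays stands for it. By role they comprise 8 chaperones and folding factors (Hspa5, Hsp90b1, Hyou1, Calr, Canx, Sdf2l1, Creld2, Manf), 3 J-domain cochaperones (Dnajb9, Dnajb11, Dnajc3), 4 disulfide isomerases (Pdia3, Pdia4, Pdia6, P4hb) and 6 genes of ER-associated degradation (Herpud1, Sel1l, Syvn1, Derl1, Derl2, Edem1). The others are 3 stress sensors (Atf6, Ern1, Eif2ak3), 5 genes of the ATF4 and CHOP branch (Atf4, Ddit3, Trib3, Chac1, Asns), 3 genes of the translocon (Sec61a1, Sec61b, Ssr1) and 2 genes of the COPII coat (Sec23b, Sec24d).

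Lacrimal glands and salivary glands were taken from male NOD mice, a strain whose lacrimal glands fill with leukocytes as the mice grow older, and were profiled on Affymetrix mouse genome arrays. Mice were given LTBR-Ig, a soluble decoy made of the lymphotoxin-beta receptor joined to a mouse IgG1 Fc, which blocks signalling through that receptor. Control mice received the mouse IgG1 protein MOPC-21, and further mice were left untreated. Injections into the peritoneum began at 8 weeks of age and were given weekly. Treated glands were thus taken after 4 weeks (week 12) and after 8 weeks (week 16), and untreated glands at weeks 8, 12, 14 and 16. Here and below, a numbered week is the age of the mice. Each of the 16 groups held 4 arrays, except untreated lacrimal glands at week 12 (n = 3) and LTBR-Ig salivary glands at week 12 (n = 2). Both lacrimal glands of a mouse were combined, the salivary samples were combined glands, submandibular and parotid among them, and the methods describe the replicates as biological. LTBR-Ig acts on the whole animal. These are bulk samples, in which fewer cells of a type and less RNA per cell cannot be told apart.

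Secreted proteins enter the ER through the Sec61 translocon, are folded there by the chaperone BiP (Hspa5), by the lectin chaperones calnexin and calreticulin and by protein disulfide isomerases, and leave in COPII vesicles. When unfolded proteins accumulate, the sensors IRE1 (Ern1), PERK (Eif2ak3) and ATF6 are released from BiP. IRE1 splices the mRNA of the transcription factor XBP1, ATF6 is cut to release a transcription factor, and PERK slows translation while the transcription factor ATF4 is made, whose targets include CHOP (Ddit3), Trib3, Chac1 and Asns. Acinar cells of exocrine glands and plasma cells, both of which export large amounts of protein, carry high levels of this machinery. Arrays measure mRNA, so splicing of Xbp1, cleavage of ATF6 and phosphorylation by PERK were not measured.

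The promoters of several members carry the elements through which this response acts. In RefSeq promoters of the mouse build GRCm38.p6, from 250 bases before to 50 bases after each start, 29 of the 34 members were found. The ER stress response element, CCAAT followed by 9 bases of any kind and CCACG, was searched on both strands and was present in 8 of these 29 members (Hspa5, Hsp90b1, Calr, Canx, Creld2, Dnajc3, Pdia6 and Syvn1), with 2 copies in Hsp90b1, and in 0.119% of all 32851 promoters. The 5 windows below are shown because their genes passed a test of LTBR-Ig at week 16, as given further on. Capitals mark the element, which reads from CCAAT where it lies on the gene's strand and from CGTGG where it lies on the other. In Hspa5 the first capitals mark a UPR element.
Hspa5, chr2:34771913-34772063, plus strand: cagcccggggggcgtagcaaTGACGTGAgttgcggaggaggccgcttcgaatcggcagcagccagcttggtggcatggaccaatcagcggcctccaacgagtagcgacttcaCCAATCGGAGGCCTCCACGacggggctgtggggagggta
Calr, chr8:84847055-84847113, minus strand: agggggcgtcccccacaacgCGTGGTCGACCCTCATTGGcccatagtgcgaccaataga
Canx, chr11:50325780-50325838, minus strand: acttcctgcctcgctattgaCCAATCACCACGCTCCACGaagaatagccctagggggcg
Dnajc3, chr14:118937807-118937865, plus strand: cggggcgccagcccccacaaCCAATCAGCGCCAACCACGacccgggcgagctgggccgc
Syvn1, chr19:6046512-6046570, plus strand: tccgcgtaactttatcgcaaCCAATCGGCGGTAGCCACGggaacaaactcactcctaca

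In the 5 promoters above the element began 65 bases before the start in Hspa5, 162 in Calr, 145 in Canx, 105 in Dnajc3 and 44 in Syvn1. The core of the UPR element (TGACGTGG or TGACGTGA, either strand) was found in Hspa5 and Sec24d, and in 1.12% of all promoters. On its other strand TGACGTGG holds the letters CCACG, which end every ER stress response element and occur by themselves in 32.8% of all promoters and in 23 of the 29 members. The composite element bound by C/EBP and ATF factors (TGATG, any base and AA, either strand) was found in Asns, Chac1, Herpud1 and Trib3, and in 3.97% of all promoters. The windows of Asns and Chac1, the members with the largest differences between LTBR-Ig and MOPC-21 in lacrimal glands, and that of Sec24d are shown with the element in capitals. A match is a stretch of letters and no evidence that a factor binds there.
Asns, chr6:7693205-7693252, minus strand: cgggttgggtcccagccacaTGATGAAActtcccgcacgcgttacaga
Chac1, chr2:119351029-119351076, plus strand: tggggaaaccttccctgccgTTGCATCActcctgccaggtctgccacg
Sec24d, chr3:123267450-123267497, plus strand: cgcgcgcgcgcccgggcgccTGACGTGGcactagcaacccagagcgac

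All values are the log2 expression values the authors deposited, and a difference of 1 is a change of 2-fold. A log2 value of 4 was taken as the floor, and 37.3% to 41.4% of an array's probe sets exceeded it. The number of arrays limits the precision. A probe set passed at a Benjamini-Hochberg adjusted p under 0.05 in limma, over 20077 probe sets in lacrimal and 19617 in salivary glands, and "rose" and "fell" are used only of genes that passed. Lacrimal arrays differed in salivary transcripts. Amy1, which encodes salivary amylase, lay above a log2 value of 8 in 8 of the 31 lacrimal arrays. Among them at week 16 were LTBR-Ig replicates 3 (15.08) and 4 (12.22) and untreated replicates 1 (14.39) and 2 (15.31). The main counts of members at that week are therefore also given without the arrays high in Amy1. This leaves LTBR-Ig replicates 1 and 2 and untreated replicates 3 and 4. It does not remove all salivary transcripts. Submandibular and sublingual products averaged 11.40 and 9.30 in those LTBR-Ig arrays, against 4.04 to 6.92 in MOPC-21 arrays of week 16. MOPC-21 replicate 3 of week 16 had the lowest mean of the 34 members of all lacrimal arrays of that week (9.62) and MOPC-21 replicate 2 of week 12 stood apart among salivary arrays (9.34, against 9.80 to 10.22 in the others).

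After 8 weeks of LTBR-Ig, ER folding genes of the lacrimal gland stood higher than after MOPC-21. All 34 members had a positive difference, with a median of 0.35 and a range of 0.01 to 1.20, whereas over all probe sets tested the median was -0.05 and 8935 of 20077 were positive. The test was passed by 14 members, all higher, where 6.36% of all probe sets tested were higher and 15.9% were lower. The groups did not overlap for 8 members (Canx, Dnajc3, Pdia6, Syvn1, Atf6, Eif2ak3, Asns and Sec24d), each with every LTBR-Ig array above every MOPC-21 array, which held for 6.74% of all probe sets. A rise of at least 2-fold was reached by Chac1 and Asns, and by 0.339% of all probe sets. At an unadjusted p under 0.05 there were 23 members and 7804 of all probe sets.

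**Figure D1:**
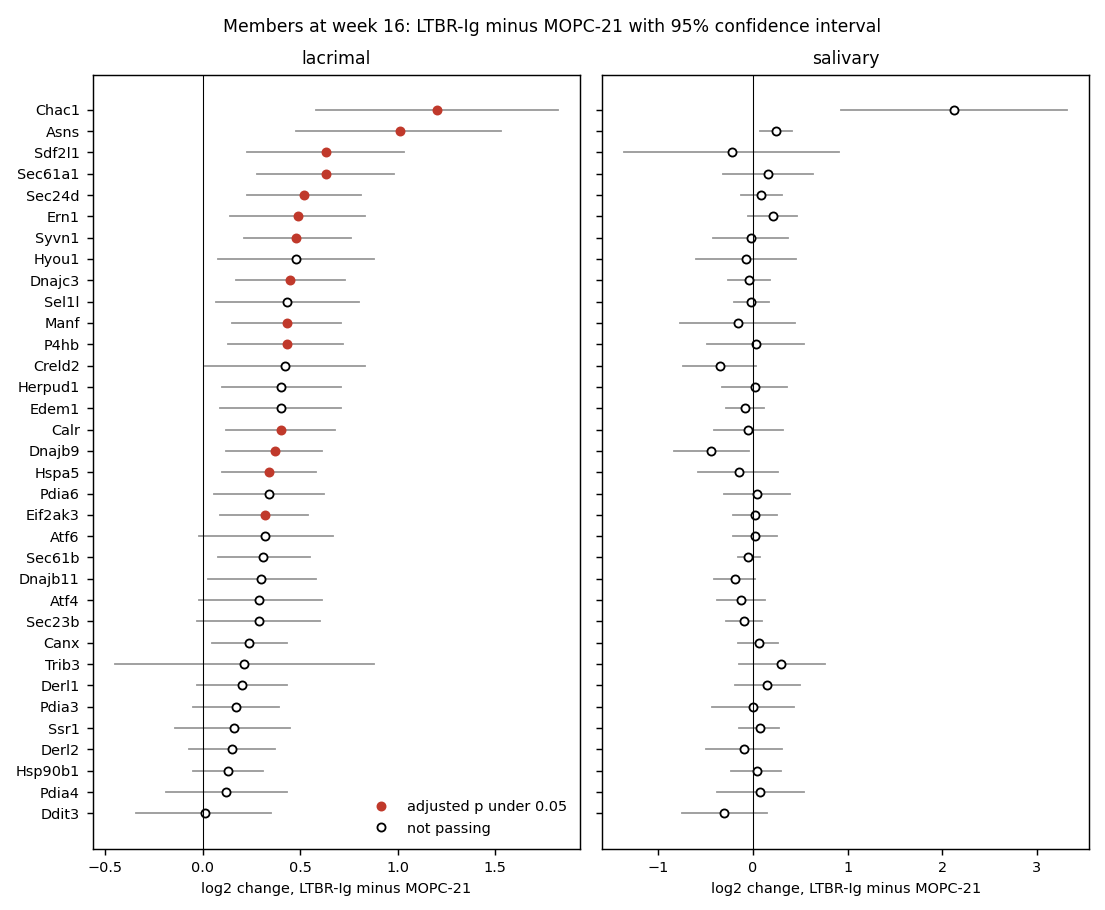
Differences on the log2 scale, LTBR-Ig minus MOPC-21 at week 16, for each of the 34 members in the lacrimal and the salivary gland, with 95% confidence intervals (n = 4 arrays in each group). All 34 lacrimal differences lie at or above 0.01, while in the salivary gland 16 are positive and 18 negative and Chac1 alone reaches 2.12.

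Among the chaperones and folding factors 4 of 8 rose, with a median difference over the role of 0.41. Hspa5, which encodes BiP, measured 14.12, 14.22, 14.32 and 14.38 in LTBR-Ig glands, against 14.10, 14.12, 13.46 and 13.99 in MOPC-21 glands. The LTBR-Ig arrays lay at or above the highest MOPC-21 array, with 1 tie at this rounding, and MOPC-21 replicate 3 stood well below the rest. The difference was 0.34 ± 0.12 (SE), or 1.27-fold (adjusted p = 0.0374, limma). Calr, which encodes the lectin chaperone calreticulin, measured 13.42, 13.78, 13.62 and 13.84 against 13.45, 13.55, 12.74 and 13.34 (0.40 ± 0.14, 1.32-fold, adjusted p = 0.0391, limma), and its groups overlapped. Sdf2l1, which encodes a partner of BiP and its J-domain proteins, measured 10.12, 10.44, 10.56 and 10.61 in LTBR-Ig glands and 9.90, 10.14, 9.07 and 10.12 in MOPC-21 glands. Its overlap was 1 LTBR-Ig array at the level of the upper MOPC-21 arrays, and the difference was 0.63 ± 0.19 (1.55-fold, adjusted p = 0.0249, limma). Manf, a secreted ER stress-induced factor, rose by 0.43 ± 0.14 (adjusted p = 0.0271, limma). The calnexin gene Canx did not overlap between the groups, with 10.77 to 11.00 in LTBR-Ig glands and 10.48 to 10.75 in MOPC-21 glands, but missed the test (0.24, adjusted p = 0.0605, limma), as did Hyou1, a large relative of the Hsp70 chaperones (0.48, adjusted p = 0.0737, limma).

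Of the J-domain cochaperones, which direct substrates to BiP, Dnajc3 and Dnajb9 rose. Dnajc3, also known as a PERK inhibitor, measured 11.89, 11.85, 11.95 and 12.16 in LTBR-Ig glands, against 11.68, 11.65, 10.92 and 11.80 in MOPC-21 glands. The groups did not overlap, and the difference was 0.45 ± 0.14 (1.37-fold, adjusted p = 0.0226, limma). Dnajb9 rose by 0.37 ± 0.12 (adjusted p = 0.0333, limma). P4hb, which encodes the archetypal protein disulfide isomerase, was the member of its role that rose, with 13.81 ± 0.13 in LTBR-Ig glands and 13.38 ± 0.37 in MOPC-21 glands (SD, n = 4 each, difference 0.43 ± 0.14, adjusted p = 0.0365, limma). Pdia6 did not overlap (9.85 to 10.09 in LTBR-Ig glands, 9.19 to 9.80 in MOPC-21 glands) and did not pass.

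In ER-associated degradation, which carries misfolded proteins back to the cytosol for destruction, Syvn1 rose. It encodes the ubiquitin ligase HRD1, the centre of this system, and measured 10.24, 10.32, 10.21 and 10.45 in LTBR-Ig glands, against 9.80, 10.07, 9.55 and 9.85 in MOPC-21 glands. All LTBR-Ig arrays lay above all MOPC-21 arrays (0.48 ± 0.13, 1.40-fold, adjusted p = 0.0164, limma). Herpud1, a scaffold of the HRD1 complex, stood at 0.40 with an adjusted p of 0.0502 (limma), and Edem1, a lectin that marks glycoproteins for degradation, at 0.40 with 0.0568, both just outside the threshold. Both translocon and vesicle genes were represented among those that rose. Sec61a1, the pore subunit, measured 12.21, 11.61, 12.28 and 12.37 in LTBR-Ig glands and 11.32, 11.48, 11.38 and 11.78 in MOPC-21 glands, so that LTBR-Ig replicate 2 alone fell within the MOPC-21 range (0.63 ± 0.17, 1.54-fold, adjusted p = 0.0153, limma). Sec24d, a cargo-binding subunit of the COPII coat, did not overlap, with 9.68 to 9.98 in LTBR-Ig glands and 8.76 to 9.65 in MOPC-21 glands (0.52 ± 0.14, 1.43-fold, adjusted p = 0.0156, limma).

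Of the sensors 2 of 3 rose. Eif2ak3, the PERK gene, measured 7.91, 8.02, 7.99 and 7.98 in LTBR-Ig glands, against 7.72, 7.86, 7.46 and 7.60 in MOPC-21 glands, without overlap (0.32 ± 0.11, adjusted p = 0.0394, limma). Ern1, the IRE1 gene, measured 9.05, 8.82, 9.04 and 8.82 in LTBR-Ig glands and 8.58, 8.87, 7.92 and 8.42 in MOPC-21 glands (0.49 ± 0.17, 1.40-fold, adjusted p = 0.0406, limma). Both thus rose, Eif2ak3 in every array and Ern1 with an overlap at MOPC-21 replicate 2. Atf6 stood at 7.69, 7.92, 7.79 and 7.84 in LTBR-Ig glands and at 7.49, 7.64, 7.39 and 7.43 in MOPC-21 glands. These arrays did not overlap either, but the difference of 0.32 (95% confidence interval -0.02 to 0.67) did not pass (adjusted p = 0.148, limma). Xbp1, the target of IRE1 and not itself a member, averaged 13.07 ± 0.12 in LTBR-Ig glands and 12.85 ± 0.18 in MOPC-21 glands (SD, n = 4 each, difference 0.22, adjusted p = 0.0804, limma).

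Asns, which encodes asparagine synthetase, measured 10.18, 10.06, 10.53 and 10.82 in LTBR-Ig glands, against 9.60, 9.95, 8.43 and 9.58 in MOPC-21 glands. All LTBR-Ig arrays were above all MOPC-21 arrays, and the difference was 1.01 ± 0.25 (2.01-fold, adjusted p = 0.0118, limma). Chac1, which encodes a glutathione-degrading enzyme, measured 5.94, 6.23, 6.87 and 6.91 in LTBR-Ig glands and 5.52, 6.03, 4.33 and 5.27 in MOPC-21 glands (1.20 ± 0.30, 2.30-fold, adjusted p = 0.0117, limma). It was a weakly expressed gene, with MOPC-21 replicate 3 near the floor. Atf4 itself was at 0.29 (interval -0.02 to 0.61, adjusted p = 0.155, limma), with 9.84 to 10.25 in LTBR-Ig glands and 9.38 to 10.07 in MOPC-21 glands. Ddit3, the CHOP gene, measured 6.68, 6.41, 6.75 and 6.50 in LTBR-Ig glands and 6.09, 6.61, 6.87 and 6.76 in MOPC-21 glands. Its 2 groups lay over each other, with a difference of 0.01 and an interval of -0.34 to 0.35.

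How many members passed depended on single arrays, and the share of all probe sets that passed as higher moved too. Without MOPC-21 replicate 3 no member passed (0.14% of all probe sets), the median difference was 0.22 and all 34 stayed positive, with 10 members at an unadjusted p under 0.05, and Chac1 stood at 0.88 and Asns at 0.69. Without LTBR-Ig replicate 3 the 2 members that passed were Syvn1 and Asns (0.823% of all probe sets), and without LTBR-Ig replicate 4 they were Chac1 and Asns (2.02%). Without LTBR-Ig replicate 2 there were 8 (3.54%), and without MOPC-21 replicate 2 there were 21 (10.7%). Without the arrays high in Amy1 none passed (0.0504% of all probe sets), 32 of 34 were positive and the median was 0.30, with 4 members at an unadjusted p under 0.05. Fitted on the LTBR-Ig and MOPC-21 arrays of this week alone, the comparison gave 0 passing members (0.256% of all probe sets) and 17 at an unadjusted p under 0.05, with the same median of 0.35. For these alternative fits the share of all probe sets at an unadjusted p under 0.05 is not given here. Centring each array on its median moved the median of all probe sets by 0.15 and gave 23 members, all higher, with a median of 0.50, where 15.1% of all probe sets were higher.

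Untreated mice gave a further control. Against untreated glands of week 16, all 34 members again had a positive difference (median 0.27, all probe sets -0.04), and 2 passed, Canx and Syvn1, both higher, where 1.45% of all probe sets were higher and 8.41% lower. The comparison shares its LTBR-Ig arrays with the one above. Canx measured 10.77, 10.77, 10.98 and 11.00 in LTBR-Ig glands, against 10.63, 10.47, 10.74 and 10.36 in untreated glands (0.33 ± 0.09, adjusted p = 0.030, limma). Syvn1 in untreated glands was at 10.09, 9.84, 9.91 and 9.62, below each LTBR-Ig array (0.44 ± 0.13, adjusted p = 0.041, limma). For 10 members (Calr, Canx, Dnajc3, P4hb, Syvn1, Atf6, Ern1, Eif2ak3, Sec61b and Sec24d) the LTBR-Ig and untreated groups did not overlap, with LTBR-Ig above, against 7.58% of all probe sets. Hspa5 differed by 0.23 (adjusted p = 0.185, limma), Atf4 by 0.30 (0.186), Ddit3 by 0.11 (0.674), Atf6 by 0.32 (0.197), Ern1 by 0.31 (0.222) and Eif2ak3 by 0.26 (0.113).

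The count of 2 was 0 without any 1 of untreated replicates 2 and 4 and LTBR-Ig replicates 3 and 4, was 1 (Canx) without untreated replicate 3 and was 4 (Calr, Canx, Syvn1 and Chac1) without LTBR-Ig replicate 1. It was also 0 without the arrays high in Amy1, with a median of 0.23 and 1 member at an unadjusted p under 0.05, and it was 9 when only the arrays compared were fitted. The share of all probe sets under these settings is not given here. These counts thus do not say whether the members or the whole array changed. MOPC-21 and untreated glands of week 16 gave no passing member in limma and no passing probe set at all (0%), with 0 members and 411 probe sets at an unadjusted p under 0.05. The members' median there was -0.09, and 27 of 34 differences were negative. Between LTBR-Ig and untreated glands 8 of 8 B cell markers fell (median -2.34), as did 5 of 7 T cell, 4 of 7 plasma cell and 4 of 10 macrophage and dendritic cell markers, and 5 of 9 submandibular and sublingual products rose (median 2.53). Their part in the members' differences was not tested.

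After 4 weeks of treatment no member passed. At week 12 the median of LTBR-Ig minus MOPC-21 was 0.00, and 0.0847% of all probe sets passed in either direction. At an unadjusted p under 0.05 there were 1 member (Atf6) and 1772 of 20077 probe sets. Of the members 17 were positive and 17 negative. The split moved with single arrays, to 9 positive and 25 negative without replicate 4 of either treatment and to 24 positive and 10 negative when MOPC-21 replicate 3 was left out. Without the arrays high in Amy1 it was 27 positive and 7 negative with a median of 0.13, and no member passed under any of these. Hspa5 differed by -0.02 (95% confidence interval -0.26 to 0.21), Eif2ak3 by -0.08, Ern1 by 0.03, Atf4 by -0.12 and Ddit3 by -0.10, and Atf6 by 0.45 (interval 0.11 to 0.79, adjusted p = 0.401, limma). Against untreated glands of week 12 no member passed either, with 0.00498% of all probe sets passing and a median of -0.08. At an unadjusted p under 0.05 there were 0 members and 1339 of 20077 probe sets. The week 16 effect minus the week 12 effect was itself tested. It was positive in 33 members (median 0.37, Hspa5 0.37 with an adjusted p of 0.313, limma), and no member and no probe set (0%) passed. At an unadjusted p under 0.05 there were 13 members and 3126 of 20077 probe sets. The difference between the weeks thus did not pass for any single gene.

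Transcripts of other cell types moved with the members in the comparison with MOPC-21. Of the B cell markers 8 of 8 tested fell (median -2.32), of plasma cell markers 5 of 7 (-1.31), of T cell markers 6 of 7 (-1.47) and of macrophage and dendritic cell markers 6 of 10 (-0.96). The mean level of the B cell list was 7.06, 5.81, 4.49 and 5.31 in LTBR-Ig glands, against 7.72, 6.99, 8.88 and 7.49 in MOPC-21 glands, the highest being MOPC-21 replicate 3. Transcripts of submandibular and sublingual glands rose in 9 of 9 (median 4.76), with list means of 11.40, 9.30, 10.58 and 7.99 in LTBR-Ig glands and 4.95, 6.92, 4.04 and 4.22 in MOPC-21 glands, and 0 of 3 parotid products passed. The products of the salivary glands are themselves secreted proteins, and the leukocyte lists include plasma cells. Of 8 genes of secretory epithelium tested, 3 rose (median 0.33), among them Cdh1, the epithelial cadherin gene, by 0.44, and the list mean was 9.85 to 10.05 in LTBR-Ig glands and 9.36 to 9.80 in MOPC-21 glands. Mean levels of the 34 members on the same arrays were 10.30, 10.38, 10.53 and 10.56 in LTBR-Ig glands, 10.09, 10.32, 9.62 and 10.20 in MOPC-21 glands, and 10.28, 10.14, 10.19 and 9.99 in untreated glands. The part of these cell types and transcripts in the members' differences was not tested.

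**Figure D2:**
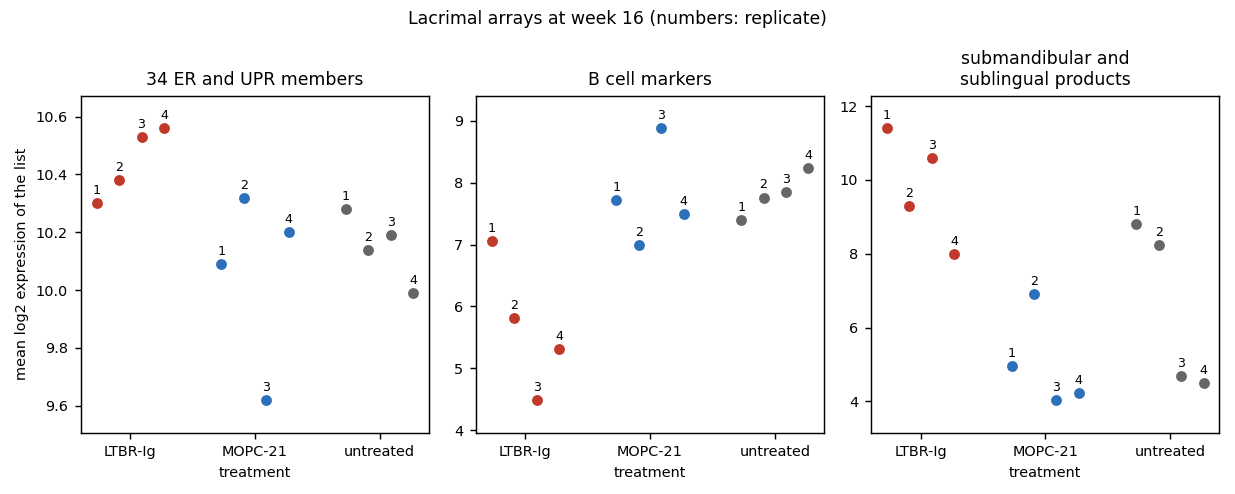
Mean log2 expression of the 34 members, of the B cell markers and of submandibular and sublingual products in each lacrimal array of week 16, by treatment, with points numbered by replicate. MOPC-21 replicate 3 is lowest for the members (9.62) and highest for the B cell markers (8.88), and every LTBR-Ig array exceeds every MOPC-21 array for the salivary products.

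Other genes of the pathway, 132 matched of 138 listed, moved alongside. Of 124 tested in week 16 lacrimal glands, 27 rose with LTBR-Ig over MOPC-21 and 2 fell, 105 were positive and the median was 0.28. Among other targets of ATF4, 6 of 19 rose, including the amino acid transporter Slc7a5 (1.01 ± 0.30, adjusted p = 0.0222, limma), the alanine aminotransferase gene Gpt2 (0.88) and Cth (0.83), an enzyme of cysteine synthesis. The ER degradation genes Derl3 (0.68) and Edem3 (0.51) rose, as did the transcription factor gene Creb3l1 (0.66) and the stress gene Nupr1 (0.62). Tmed9 (0.48, adjusted p = 0.00713, limma), a cargo receptor, and Sec24a (0.51) rose, whereas Sec23a, a subunit of the same COPII coat, fell by 0.63 (adjusted p = 0.0107, limma). Against untreated glands 2 of these genes rose (Tmed9 and Sec11c) and 1 fell (Sec23a). At week 12 none passed between LTBR-Ig and MOPC-21 and 5 had an unadjusted p under 0.05.

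As untreated lacrimal glands aged, most of the members fell. Between week 16 and week 8, 24 of 34 fell and 1, Ddit3, rose, where 29.6% of all probe sets fell and 23.9% rose, and the median of the members was -0.48 against -0.07 for all probe sets. Week 16 arrays lay wholly below week 8 arrays for 25 members and wholly above for 1, against 30.6% and 23.8% of all probe sets. At week 12 the counts were 16 lower and 1 higher (24.0% and 11.2% of all probe sets, median -0.36), and at week 14 they were 22 lower and 1 higher (27.0% and 20.0%, median -0.41). The 3 comparisons share the week 8 arrays. Without the arrays high in Amy1, 22 members passed between week 16 and week 8 and the median was -0.52, and the matching share of all probe sets is not given here.

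**Figure D3:**
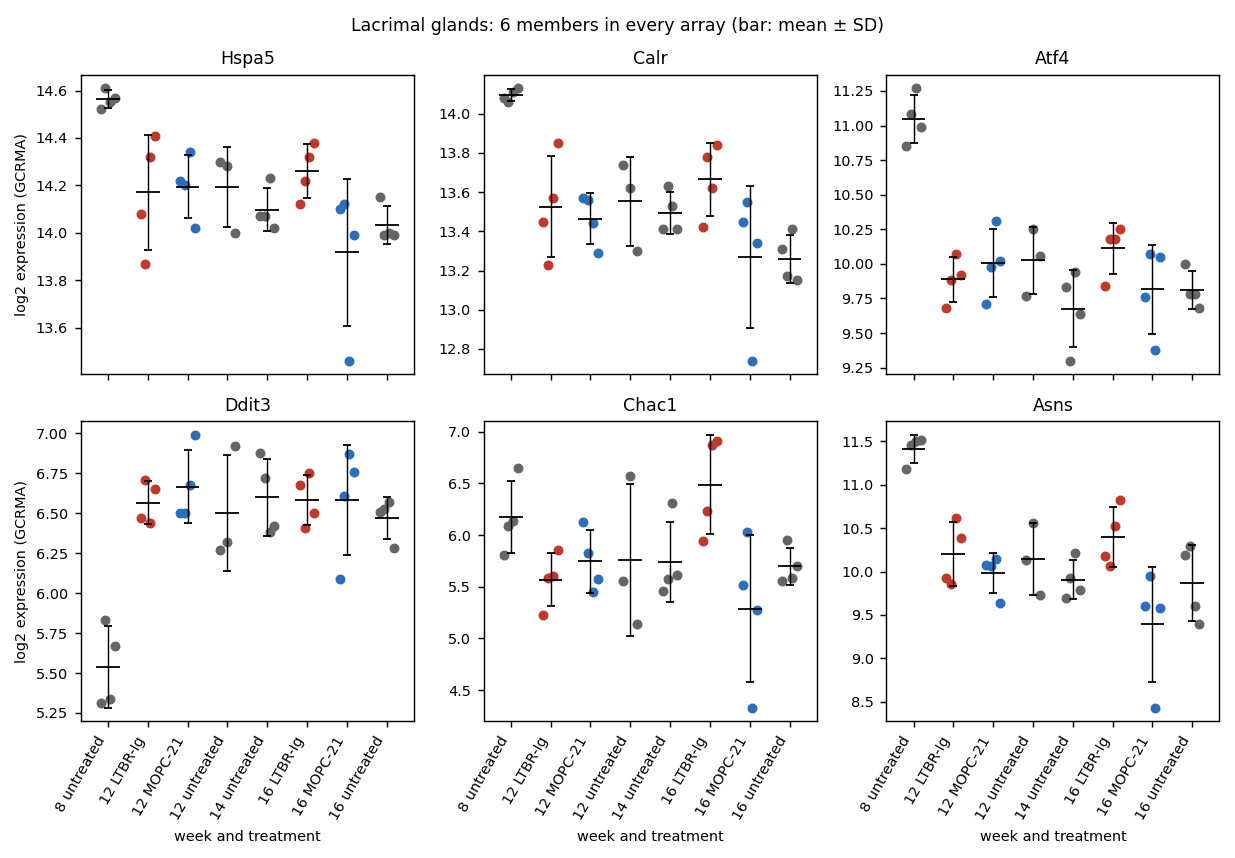
Log2 level of 6 members (Hspa5, Calr, Atf4, Ddit3, Chac1 and Asns) in lacrimal glands by week for LTBR-Ig, MOPC-21 and untreated mice, each point an array, with mean ± SD. Hspa5 is at 14.52 to 14.61 at week 8 and at 13.99 to 14.15 in untreated glands of week 16, while Ddit3 runs the other way, 5.31 to 5.83 at week 8 and 6.28 to 6.57 at week 16.

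All 8 chaperones and folding factors were lower at week 16 than at week 8 (role median -0.79), as were all 3 cochaperones (-0.64), all 3 translocon genes (-0.49) and both COPII genes (-0.46). Hspa5 measured 14.15, 13.99, 14.00 and 13.99 at week 16 and 14.52, 14.61, 14.55 and 14.57 at week 8, and fell by 0.53 ± 0.12 on the log2 scale (1.45-fold, adjusted p = 0.000416, limma). Calr measured 13.31, 13.17, 13.41 and 13.15 at week 16, against 14.08, 14.06, 14.11 and 14.13 at week 8. The week 8 arrays of Calr lay close together, and all week 16 arrays stood below them (-0.84, adjusted p = 1.63e-05, limma). Hyou1 (-0.98), Sdf2l1 (-0.92), Creld2 (-0.88), an ER stress-inducible folding factor, Dnajb11 (-0.87), Canx (-0.75), P4hb (-0.70) and Manf (-0.69) moved by more than Hspa5. Of the degradation genes 3 of 6 fell with the chosen probe sets, including Syvn1 (-0.68, adjusted p = 0.00015, limma), while Herpud1 differed by 0.04 (adjusted p = 0.839, limma). Of the disulfide isomerases 2 of 4 fell.

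The ATF4 branch held both the largest falls and the only rise. Asns measured 10.19, 10.29, 9.60 and 9.40 at week 16 and 11.18, 11.46, 11.50 and 11.52 at week 8 (-1.55 ± 0.25, 2.92-fold, adjusted p = 1.81e-05, limma). Atf4 averaged 9.81 ± 0.14 at week 16 and 11.05 ± 0.18 at week 8 (SD, n = 4 each), and its arrays did not overlap (-1.24 ± 0.15, 2.36-fold, adjusted p = 3.54e-07, limma). These 2 genes were the members that fell by 2-fold or more, as did 4.49% of all probe sets. Ddit3 measured 6.51, 6.53, 6.57 and 6.28 at week 16 and 5.31, 5.83, 5.34 and 5.67 at week 8, and all week 16 arrays were higher (0.94 ± 0.17, 1.91-fold, adjusted p = 5.18e-05, limma). A weaker probe set of Ddit3, with an average of 3.74 over all arrays, stood at 0.30 and did not pass (adjusted p = 0.14, limma). The opposite signs of Atf4 and Ddit3 were present at week 12 too, with Atf4 at -1.02, Asns at -1.27 and Ddit3 at 0.96 (adjusted p = 0.000192, limma). Of the sensors Eif2ak3 fell by 0.43 (adjusted p = 0.00188, limma), and neither Atf6 (0.23, 95% confidence interval -0.11 to 0.58) nor Ern1 (-0.18, interval -0.53 to 0.17) passed with the chosen probe set. Xbp1 averaged 12.83 ± 0.05 at week 16 and 13.26 ± 0.10 at week 8 (SD, n = 4 each) and fell by 0.43 (adjusted p = 0.000353, limma).

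**Figure D4:**
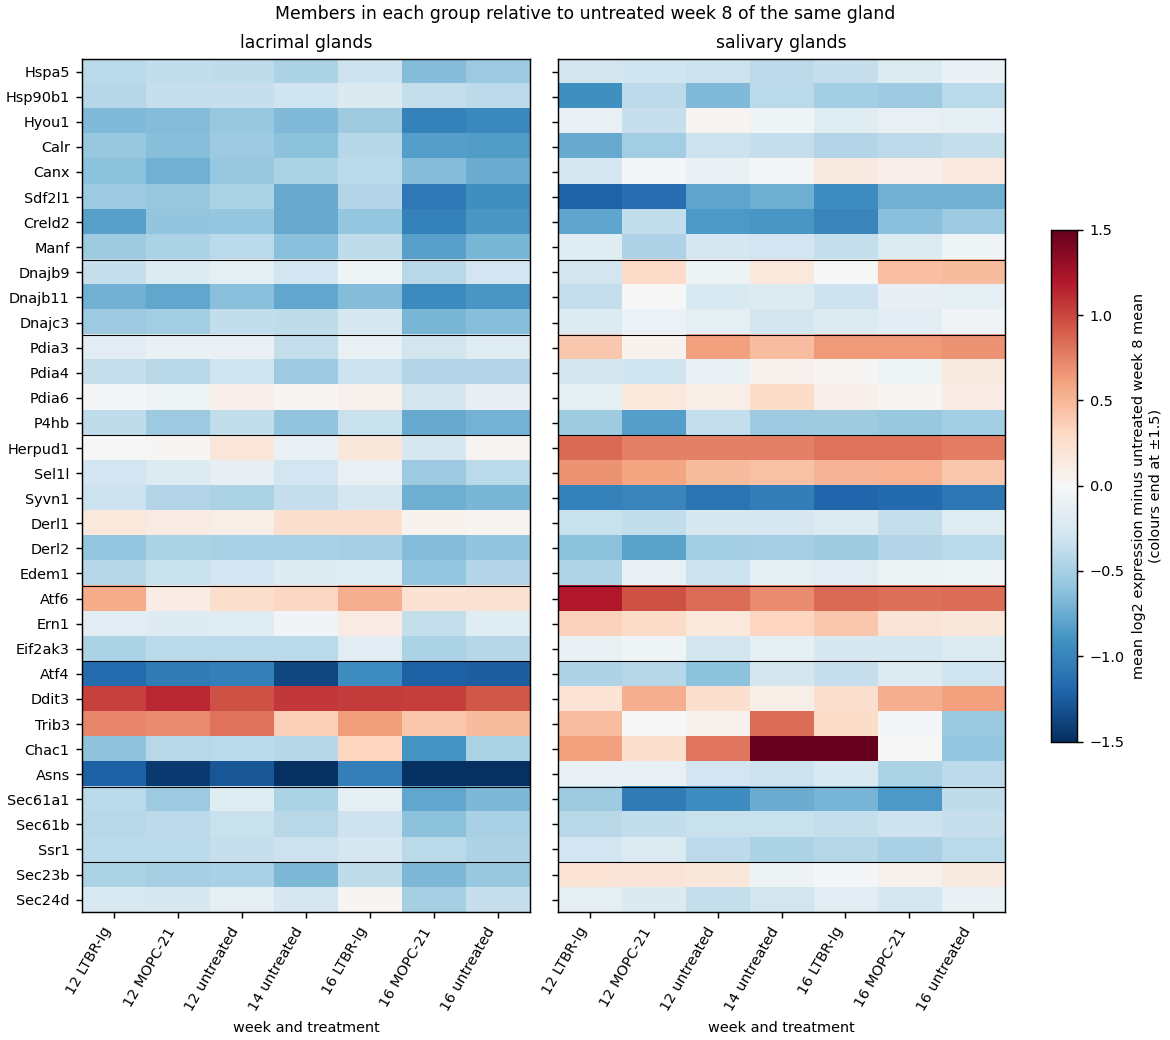
Difference on the log2 scale of each group's mean from the untreated week 8 mean of the same gland, with members in rows grouped by role (red higher, blue lower) and the colours ending at ±1.5. In lacrimal columns Asns and Atf4 are lower in every later group and Ddit3 is higher, and in salivary columns Chac1 is higher at week 14 (2.96) and in LTBR-Ig glands of week 16 (2.13).

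The other genes of the pathway went the same way with age, 87 of 124 lower and 1 higher, with a median of -0.48. Of 11 oligosaccharyltransferase genes, which attach glycans to proteins entering the ER, 10 fell, for example Tmem258 (-0.93) and Dad1 (-0.92), and of the other ATF4 targets 15 of 19 fell, with Slc7a5 at -1.76 and Mthfd2, an enzyme of folate metabolism, at -1.18. Leukocyte lists moved in the opposite direction over the same weeks. All 8 B cell markers (median 5.84), 6 of 7 plasma cell markers (3.81), 7 of 7 T cell markers (3.08) and 10 of 10 macrophage and dendritic cell markers (3.78) were higher, and the B cell list mean was 7.40 to 8.24 at week 16 and 2.80 to 3.47 at week 8, where none of its 9 markers had a group mean above the floor. Of 8 genes of secretory epithelium 5 fell and 1 rose (median -0.49), including Bhlha15, a transcription factor of secretory cells (-1.07), and Aqp5, the acinar water channel gene (-1.06). Submandibular and sublingual products counted 2 higher and 1 lower of 9. The part of these changes in the members' falls was not tested.

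Set against untreated week 8 glands, LTBR-Ig glands of week 16 had 11 members lower and 2 higher (22.6% and 11.8% of all probe sets, median -0.24). MOPC-21 glands of week 16 had 27 lower and 1 higher (31.5% and 26.2%, median -0.63). Both comparisons use the same week 8 arrays, and the direct comparison of LTBR-Ig with MOPC-21 is the one given above. Hspa5 was at -0.31 in LTBR-Ig glands (adjusted p = 0.0416, limma) and at -0.65 in MOPC-21 glands, Asns at -1.02 and -2.03, and Atf4 at -0.94 and -1.23, each in that order. The members that were higher in LTBR-Ig glands than at week 8 were Ddit3 (1.05) and Atf6 (0.55, adjusted p = 0.0114, limma), and Ddit3 was the 1 that was higher in MOPC-21 glands (1.04). LTBR-Ig glands of week 16 against those of week 12 had 32 of 34 positive differences (median 0.14), none of which passed. At an unadjusted p under 0.05 there were 6 members and 1943 of 20077 probe sets.

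In salivary glands the members had no common direction with LTBR-Ig. At week 16 no member passed against MOPC-21, where 0.0561% of all probe sets passed, and 16 were positive and 18 negative with a median of -0.01, against -0.02 for all probe sets. At an unadjusted p under 0.05 there were 3 members and 1121 of 19617 probe sets. Chac1 had the largest difference and measured 8.12, 7.98, 8.31 and 8.18 in LTBR-Ig glands, against 6.30, 5.13, 6.92 and 5.76 in MOPC-21 glands. The groups did not overlap, and the 4 LTBR-Ig arrays lay close together while the MOPC-21 arrays spread widely. The difference of 2.12 ± 0.58 was 4.36-fold but did not pass (adjusted p = 0.292, limma). Against untreated glands, at 5.50, 5.09, 5.48 and 5.67, it was 2.71 ± 0.58 (6.55-fold, adjusted p = 0.0745, limma). Chac1 passed when only the arrays compared were fitted and when MOPC-21 and untreated arrays were pooled as the control.

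Hspa5 averaged 13.07 ± 0.05 in LTBR-Ig and 13.22 ± 0.07 in MOPC-21 salivary glands (SD, n = 4 each). These arrays did not overlap, LTBR-Ig being below, and the difference of -0.15 did not pass (adjusted p = 1, limma). Non-overlapping members were 2 above (Chac1 and Ern1) and 3 below (Hspa5, Creld2 and Manf), against 2.97% and 4.81% of all probe sets. The other regulators differed by 0.02 (Atf6), 0.21 (Ern1), 0.02 (Eif2ak3), -0.13 (Atf4), -0.30 (Ddit3) and 0.20 (Xbp1), none of which passed. Against untreated salivary glands of week 16 no member passed, with 0.0867% of all probe sets passing. At an unadjusted p under 0.05 there were 4 members and 1199 of 19617 probe sets. At week 12 (n = 2 LTBR-Ig arrays) no member passed against MOPC-21, with 0.0510% of all probe sets passing. There 4 members and 2420 of 19617 probe sets had an unadjusted p under 0.05. No B cell or T cell marker had a group mean above the floor in any salivary group, although single untreated arrays of week 8 reached 5.32 (Ms4a1) and 5.02 (Bank1). The plasma cell list mean was 3.48 to 3.59 in LTBR-Ig glands and 4.08 to 4.24 in MOPC-21 glands of week 16. Of 3 plasma cell markers tested there, Igj, the immunoglobulin joining chain gene, fell. It was 5.65 to 6.24 with LTBR-Ig and 8.93 to 9.83 with MOPC-21 (-3.57 ± 0.68, 11.9-fold, adjusted p = 0.0434, limma). Mzb1 (-1.72, adjusted p = 0.16, limma), also without overlap, and Sdc1 (-0.09) did not pass. The part of these transcripts in the members' differences was not tested. Of 122 other pathway genes tested none passed between LTBR-Ig and MOPC-21, and 3 had an unadjusted p under 0.05.

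Chac1 was also the member whose salivary level varied most between weeks. In untreated salivary glands it measured 4.84, 5.58, 7.65 and 6.01 at week 8, 5.71, 6.63, 8.39 and 6.57 at week 12, 9.53, 8.42, 8.91 and 9.05 at week 14, and 5.50, 5.09, 5.48 and 5.67 at week 16. Every week 14 array lay above every array of the other untreated weeks, although week 12 replicate 3 came close. The rise at week 14 over week 8 was 2.96 ± 0.58 (7.76-fold, adjusted p = 0.000248, limma), and week 16 was at -0.58 (adjusted p = 0.478, limma). In that comparison 5 members rose and 8 fell, where 16.0% of all probe sets rose and 19.3% fell, and Trib3, an inhibitor of ATF4 and another of its targets, was among those that rose (0.84, adjusted p = 0.00412, limma). LTBR-Ig glands of week 16 against untreated week 8 had 6 members higher and 11 lower (17.3% and 20.4% of all probe sets), with Chac1 at 2.13 (adjusted p = 0.00505, limma).

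Between week 16 and week 8 untreated salivary glands had 5 of 34 members higher and 7 lower, close to the 14.6% of all probe sets that were higher and the 19.2% that were lower, and the median was -0.14. Arrays did not overlap for 5 members above and 12 below, against 15.2% and 19.1%. The count of 12 was 7 without week 8 replicate 4 and 19 when only the arrays compared were fitted. Shares of all probe sets under these 2 settings are not given here. Syvn1 measured 8.02, 8.34, 8.44 and 8.53 at week 16, against 9.38, 9.40, 9.27 and 9.59 at week 8, and fell by 1.07 ± 0.19 (2.11-fold, adjusted p = 8.58e-05, limma). Atf6 measured 7.72, 8.09, 8.03 and 8.14 at week 16 and 7.08, 6.99, 7.49 and 7.08 at week 8. It rose by 0.84 ± 0.11 with no overlap (1.78-fold, adjusted p = 1.51e-06, limma). Herpud1 measured 11.33, 11.36, 11.38 and 11.54 at week 16, against 10.50, 10.30, 11.21 and 10.51 at week 8 (0.77 ± 0.17, adjusted p = 0.000756, limma). Pdia3 (0.67), Ddit3 (0.62, adjusted p = 0.0301) and Sel1l (0.40), the partner of HRD1, rose as well, while Trib3 (-0.57), Creld2 (-0.55), Ssr1 (-0.41), Hsp90b1 (-0.40), Asns (-0.39) and Sec61b (-0.36) fell. Hspa5 differed by -0.11 (95% confidence interval -0.53 to 0.32), Atf4 by -0.30 (adjusted p = 0.0612, limma), Ern1 by 0.17, Eif2ak3 by -0.21 and Xbp1 by -0.06. Of the other pathway genes 12 rose and 31 fell, with Vegfa at 2.31 and Edem2 at 0.74 among those that rose and Nupr1 at -0.93 and Erp29 at -0.90 among those that fell. Markers of other cell types moved over the same weeks. Igj, the immunoglobulin joining chain gene, was 9.65 to 10.46 at week 16 and 2.47 to 8.13 at week 8 and rose by 5.58, Amy1 was 7.36 to 14.19 at week 16 and 4.58 to 5.56 at week 8 and rose by 3.93, and 4 of 9 macrophage and dendritic cell markers fell and 1 rose. Of 8 genes of secretory epithelium Aqp5 (-0.75), Bhlha15 (-0.75) and Krt8 (-0.58) fell and Epcam (0.46) rose. The part of these changes in the members' differences was not tested.

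The change with age was compared directly between the glands. The lacrimal change minus the salivary change passed as lower for 12 members and as higher for 1, where 18.9% and 21.2% of all probe sets passed in those directions. The largest was Asns (-1.15, adjusted p = 0.000732, limma), followed by Atf4 (-0.94), Canx (-0.90, adjusted p = 8.4e-07), Pdia3 (-0.86), Hyou1 (-0.85), Sel1l (-0.79), Dnajb9 (-0.77), Herpud1 (-0.73), Dnajb11 (-0.72), Sec23b (-0.71), Atf6 (-0.60) and Dnajc3 (-0.59), and Trib3 was higher (1.05, adjusted p = 0.0324). Canx showed the contrast most plainly. It fell in lacrimal glands, with 10.63, 10.47, 10.74 and 10.36 at week 16 and 11.34, 11.06, 11.36 and 11.42 at week 8, while salivary glands measured 11.12, 11.10, 11.15 and 11.03 at week 16 and 10.94, 10.81, 10.97 and 11.06 at week 8 without passing. For Hspa5 the difference between glands was -0.43 and did not pass (adjusted p = 0.16, limma).

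The same test for LTBR-Ig at week 16 gave positive differences for 32 of 34 members (median 0.39), of which 1, Dnajb9, passed (0.80 ± 0.23, adjusted p = 0.0406, limma), where 4.41% of all probe sets passed. Dnajb9 stood at 11.03, 11.26, 11.29 and 11.24 in LTBR-Ig lacrimal glands, against 10.92, 11.08, 10.41 and 10.96 in MOPC-21 lacrimal glands. In salivary glands it was at 10.35, 10.93, 10.12 and 10.01 with LTBR-Ig and at 10.74, 10.88, 10.89 and 10.65 with MOPC-21, with 1 LTBR-Ig array above the MOPC-21 range. Hspa5 gave 0.49 (95% confidence interval 0.00 to 0.98, adjusted p = 0.214, limma), Atf4 0.42, Ddit3 0.31, Atf6 0.30, Ern1 0.27, Eif2ak3 0.30 and Chac1 -0.92 (interval -2.28 to 0.43). No member passed without lacrimal MOPC-21 replicate 3, without lacrimal LTBR-Ig replicate 2, 3 or 4, without the lacrimal arrays high in Amy1, or without salivary LTBR-Ig replicate 1, 3 or 4 or salivary MOPC-21 replicate 1, 2, 3 or 4, and 9 did without lacrimal MOPC-21 replicate 2, 5 without replicate 4 and 4 without lacrimal LTBR-Ig replicate 1. Shares of all probe sets without these arrays are not given here.

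In untreated mice of week 8 lacrimal glands had higher levels of most members than salivary glands, and at week 16 fewer members passed as higher. At week 8, when no B cell marker had a group mean above the floor in either gland, 20 members were higher in lacrimal glands and 3 lower, where 24.9% of all probe sets were higher and 28.8% lower, and the median was 0.67. A difference of at least 2-fold was reached by 12 of the 20, against 7.19% of all probe sets. The arrays did not overlap for 23 members above and 3 below, against 23.4% and 25.9% of all probe sets. Edem1 measured 11.28, 11.26, 11.13 and 11.17 in lacrimal glands and 8.86 to 9.13 in salivary glands, a gap many times the spread within either gland (2.19 ± 0.13, 4.57-fold, adjusted p = 2.25e-20, limma). Sdf2l1 measured 10.82, 10.87, 10.98 and 10.85 in lacrimal glands and 8.65, 8.20, 9.10 and 8.77 in salivary glands (2.20 ± 0.42, 4.58-fold, adjusted p = 1.8e-05, limma). Hspa5 was higher by 1.14 ± 0.17 (2.21-fold, adjusted p = 1.6e-07, limma), with 13.13 to 13.58 in salivary glands, and Calr by 1.55 ± 0.16 (2.93-fold). Chaperones (7 of 8), cochaperones (3 of 3) and degradation genes (4 of 6) made up most of the members that were higher. Submandibular and sublingual products were lower in 9 of 9 (median -10.14).

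**Figure D5:**
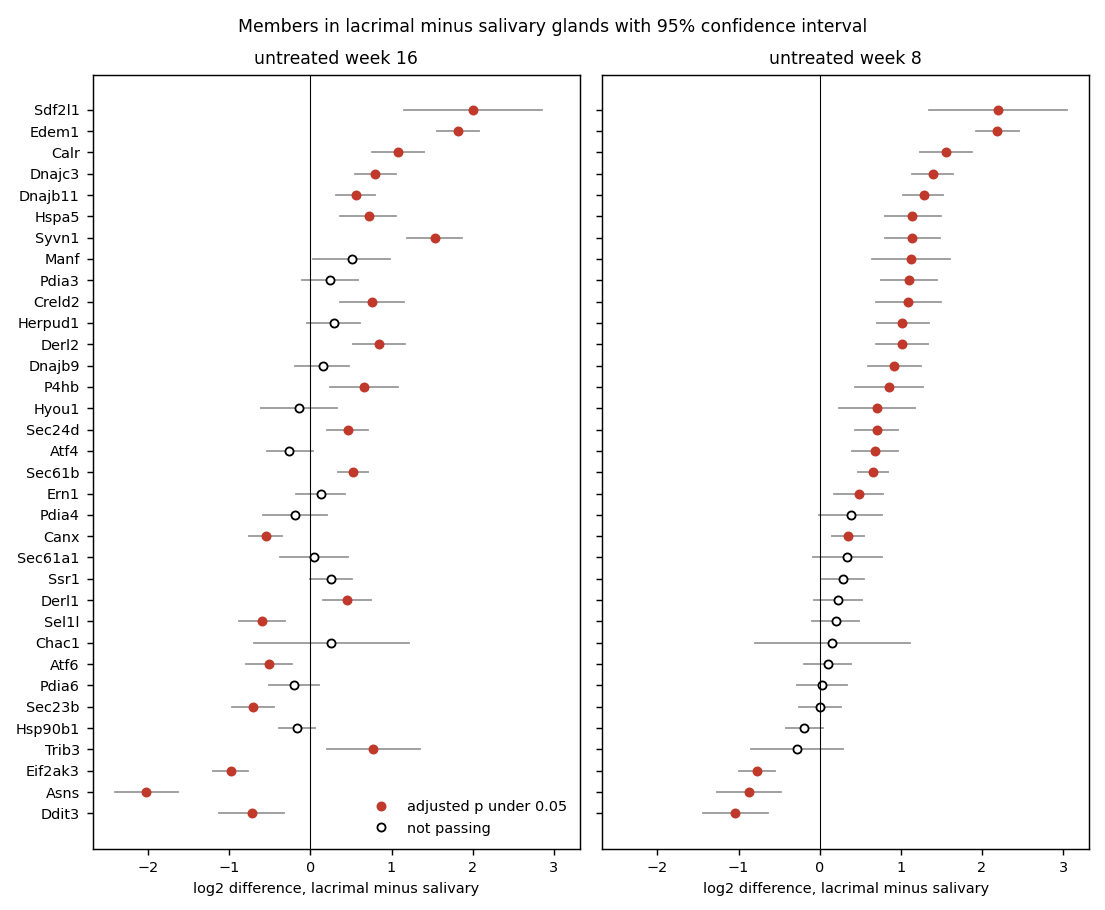
Lacrimal minus salivary difference on the log2 scale for each member in untreated mice at week 16 and week 8, with 95% confidence intervals (n = 4 arrays in each group). Edem1, Sdf2l1 and Syvn1 lie above 1 at both weeks, and Asns moves to -2.02 at week 16, against -0.87 at week 8.

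The members below salivary glands at week 8 were Ddit3 (-1.04 ± 0.20, adjusted p = 1.54e-05, limma), Asns (-0.87) and Eif2ak3 (-0.77). Asns stood at 11.18 to 11.52 in lacrimal and at 12.21 to 12.35 in salivary glands. Atf4 was higher by 0.68 and Ern1 by 0.48, and Atf6 differed by 0.10 (95% confidence interval -0.19 to 0.39). Xbp1 was higher by 0.48 (adjusted p = 0.000939, limma). At week 16, 14 members were higher and 7 lower, where 29.1% of all probe sets were higher and 27.5% lower, and the median was 0.25. Without the lacrimal arrays high in Amy1, 19 members passed at week 16, 20 of 34 were positive and the median was 0.21, with no matching share of all probe sets given here. Those lower were Asns (-2.02 ± 0.20, 4.06-fold, adjusted p = 7.77e-13, limma), Eif2ak3 (-0.98), Ddit3 (-0.72), Sec23b (-0.71), Sel1l (-0.60), Canx (-0.55) and Atf6 (-0.51), and Hspa5 (0.72), Calr (1.08), Syvn1 (1.53) and Edem1 (1.82) were among those higher. Atf4 at -0.26, Ern1 at 0.13 and Xbp1 at 0.10 did not pass. By this week all 8 B cell markers tested were higher in lacrimal glands (median 6.18), and their part in these differences was not tested. Among other pathway genes, 83 were higher and 12 lower in lacrimal glands at week 8 (median 0.70), with Slc7a5 at 4.36 and Edem3 at 2.55 above and Creb3l1 at -2.99 below, and 50 were higher and 24 lower at week 16 (median 0.23).

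Members with the ER stress response element in their promoter, such as those printed above, and members without it overlapped in their differences. Of 8 with the element 4 rose between LTBR-Ig and MOPC-21 in lacrimal glands at week 16 (median 0.37), of 21 without it 8 rose (0.32), and of the 5 whose promoter was not found 2 rose (0.43). Between week 16 and week 8 of untreated lacrimal glands 7 of 8 with the element fell (median -0.66) and 14 of 21 without it (-0.44). The 2 members that rose against untreated mice, Canx and Syvn1, both have it, though that count went to 0 when some single arrays were left out. The part of the element in the members' differences was not tested.

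Other probe sets of the same genes gave a check on the array itself. Of the members 24 had more than 1 single-symbol probe set, giving 48 further probe sets. Between LTBR-Ig and MOPC-21 in lacrimal glands at week 16, 36 of the 41 tested had the sign of the chosen probe set, and between weeks 16 and 8 of untreated lacrimal glands 35 of 41 did. A second probe set of Asns stood at 0.98 (adjusted p = 0.023, limma), and one of Hspa5 at 0.47 (adjusted p = 0.013). A second probe set of Atf4 passed at 0.54 (adjusted p = 0.011), where the chosen one at 0.29 did not, and the same held for one probe set each of Atf6 (0.48, adjusted p = 0.013), Hyou1 (0.68, 0.037), Herpud1 (0.50, 0.035) and Derl1 (0.34, 0.039). Of the 5 further probe sets of Sec61a1, whose chosen one rose, 1 passed (0.48, adjusted p = 0.044) and the others gave 0.12 to 0.28. For Syvn1 and Eif2ak3, whose chosen probe sets rose, the further ones tested gave 0.26 and 0.14 (adjusted p = 0.17 and 0.54, limma). Canx, which passed against untreated mice alone, had further probe sets at 0.06 and 0.17 (adjusted p = 0.78 and 0.32, limma). For Ern1, whose chosen probe set rose, 2 weaker probe sets gave -0.19 and 0.18 and did not pass. Between weeks 16 and 8 of untreated lacrimal glands the same 2 probe sets of Ern1 both fell, by 0.76 (adjusted p = 0.021) and 0.67 (adjusted p = 0.011), where its chosen one at -0.18 did not pass. Derl1, at 0.04 on its chosen probe set, gave -0.64 (adjusted p = 6.9e-06, limma), -0.48 (0.0061) and -0.07 (0.65) on the others. Sel1l, at -0.39 on its chosen one, gave -0.91 (0.0014), -0.63 (0.011), -0.49 (0.013) and -0.33 (0.27). Derl2, at -0.59 on its chosen one, gave -0.20 (0.3) on its other. In salivary glands 20 of 42 had the same sign for LTBR-Ig against MOPC-21, where the chosen probe sets themselves lay near 0. Between weeks 16 and 8 of untreated salivary glands, where 12 members passed, 22 of 42 had the same sign and 20 the opposite. Hsp90b1 and Trib3, whose chosen probe sets fell, stood at 0.38 and 0.05 on their others (adjusted p = 0.59 and 0.89, limma). Probe sets of Syvn1 (-0.92, adjusted p = 0.0021, limma), Herpud1 (0.87, 0.00019) and Atf6 (0.80, 0.00011) were among those that passed in the direction of the chosen ones. Between lacrimal and salivary glands of untreated mice, 38 of 42 had the same sign at week 8 and 35 of 42 at week 16. At week 8 the further probe sets of Hspa5 gave 0.70 (adjusted p = 0.0019, limma) and -0.11 (0.68). The weaker one of Ddit3 gave -0.12 (0.73), where its chosen one was lower by 1.04.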

How the data were processed

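The authors background-corrected and normalized the Affymetrix arrays by GCRMA (version not given in the sources used here) and deposited log2 values for 45101 probe sets in 61 arrays. These were used unchanged. GCRMA shrinks probe sets near background towards a common low value, so differences of weak genes are uncertain. Gene symbols came from the platform annotation (34958 probe sets with a single symbol). A probe set was tested where 2 or more arrays of some group exceeded log2 4, in R 4.3.3 with limma 3.58.1, with 1 mean per group in each gland (31 lacrimal, 30 salivary arrays), an intensity trend and Benjamini-Hochberg adjustment over all probe sets tested. Comparisons between glands used all arrays (21626 probe sets). The procedure was tried on simulated data with changes of 2-fold or more, a size that most of the members' LTBR-Ig differences did not reach. Up to 12 passing members per comparison, by size, were named, with Hspa5, Atf4, Ddit3, the sensors and Xbp1 always. Up to 4 passing genes of a pathway list were named. Members, marker lists and tests were chosen with earlier results of these data known. Alternatives were another floor or none, no trend, centred or quantile-normalized arrays, averaged probe sets, only the arrays compared, pooled controls, a replicate block, stricter thresholds, and each array or the Amy1-high arrays left out.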

Additional observations from a re-analysis of the deposited data

Results flagged for a closer look

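The levels of 9 genes and the mean of the members were examined in each group of 4 arrays, 140 checks in all, and in 5 of them 1 array stood apart, where chance gives about 1 in 20. These were Hspa5 in untreated lacrimal replicate 1 of week 16 (14.15), Ern1 in untreated salivary replicate 2 of week 14 (8.85), Eif2ak3 in MOPC-21 salivary replicate 2 of week 12 (9.22), Asns in untreated lacrimal replicate 1 of week 8 (11.18) and Asns in MOPC-21 salivary replicate 1 of week 16 (12.01).

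A tested difference between the glands picked out further values. The LTBR-Ig effect at week 16 was higher in lacrimal than in salivary glands for Dnajb9 (0.80). The change of untreated glands between week 16 and week 8 differed, lacrimal minus salivary, for Asns (-1.15), Atf4 (-0.94), Canx (-0.90), Pdia3 (-0.86), Hyou1 (-0.85), Sel1l (-0.79), Dnajb9 (-0.77), Herpud1 (-0.73), Dnajb11 (-0.72), Sec23b (-0.71), Atf6 (-0.60), Dnajc3 (-0.59) and Trib3 (1.05).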

How the results depend on the processing

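Numbers of passing members, by comparison, changed as follows. Where given above, the share of all probe sets that passed moved with the setting too. It is not listed in this section, so these counts alone do not single out the members. For LTBR-Ig against MOPC-21 in lacrimal glands at week 16 (14 members), the count was 2 at a fold of 2 or more, 0 where the posterior probability of no change also had to lie under 0.05, 0 with only the arrays compared, 23 with centred arrays, 0 without arrays high in Amy1, and 0 to 21 without single arrays. Against untreated mice (2) the counts in that order were 0, 0, 9, 9, 0 and 0 to 4. For lacrimal week 16 against week 8 (25) they were 2 with the fold, 2 with the posterior probability and 22 to 25 without single arrays. For salivary LTBR-Ig against MOPC-21 (0) the count was 1 (Chac1) with only the arrays compared or with pooled controls, and 0 without any single array. For salivary week 16 against week 8 (12) it was 1, 1 and 19 with the fold, the posterior probability and only the arrays compared, and 7 to 12 without single arrays. Lacrimal against salivary glands gave 13 and 12 at week 8 (23 to 24 without single arrays) and 5 and 4 at week 16 (19 to 21), with the fold and the posterior probability. The difference between glands in the LTBR-Ig effect (1, Dnajb9) was 0 with the fold, the posterior probability, only the arrays compared, no filter or no Amy1-high arrays, 3 with centred arrays and 0 to 9 without single arrays. For lacrimal LTBR-Ig against MOPC-21 at week 12 (0) the count stayed 0 without any single array. The cause of these changes was not tested.

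Deviations of arrays with the same replicate number had correlations of -0.51 to 0.51, against -0.57 to 0.58 for arrays with different numbers. For lacrimal LTBR-Ig against MOPC-21 at week 12, 2 of 4 same-number pairs exceeded 0.1. The labels do not say whether lacrimal and salivary arrays of the same number came from the same mouse. A replicate block gave 14 passing members for LTBR-Ig against MOPC-21 and 3 against untreated mice in lacrimal glands at week 16, 0 at week 12, 24 for lacrimal and 11 for salivary week 16 against week 8, 0 for salivary LTBR-Ig, 23 and 21 between glands at weeks 8 and 16, and 1 for the difference in LTBR-Ig effect.

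Of 1880 values of single genes under the alternatives, 1704 kept their direction and side of the threshold, 139 lost and 10 gained a call, 27 uncalled values changed sign and 0 called values did. Most groups held 4 arrays, and members near the floor (Chac1, Trib3) are the least precisely measured.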
